A study of Mus musculus with 4 samples.

Results

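The 5 genes Gata2, Gata3, Gata4, Gata5 and Gata6 encode GATA transcription factors, and their DNA methylation was read from 4 bisulfite libraries of mouse cells. They were taken by gene symbol, as 5 of the 28883 genes with a methylation level in any of the 4 libraries. They held 20 of the 76155 gene entries with a level in all 4 libraries. An entry is one level for all CpG sites in the promoter, 5′ untranslated region (UTR), exons, introns or 3′ UTR of a gene. CpG islands, which are stretches dense in CpG dinucleotides, and their flanking shores were added where they overlapped a member gene. This gave 16 of 14095 islands and 25 of 16439 shores. Some of these regions overlap each other and share CpG sites, so counts of them below are not counts of separate measurements.

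GATA factors are zinc finger proteins that bind DNA at the short motif GATA. Gata2 is known for its role in blood stem and progenitor cells and Gata3 for its role in T helper cells, while Gata4, Gata5 and Gata6 act in the developing heart and in endoderm. CpG islands at the starts of such developmental regulators are usually unmethylated in normal tissues, while the bodies of genes are commonly methylated.

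C3H10T1/2 is a mouse mesenchymal cell line that can be led towards bone, cartilage or fat. The cells received a non-targeting control siRNA (NC) or an siRNA against DNMT1, the methyltransferase that copies methylation onto newly made DNA strands, for 48 h. They were then left uninduced or held for 3 days in osteoblast (OB) induction medium containing ascorbic acid, β-glycerophosphate and dexamethasone. The labels give the 3 further days for the OB libraries only. In comparisons of OB with uninduced cells, induction therefore cannot be told apart from more time in culture after transfection. The 4 conditions are called NC uninduced, siDNMT1 uninduced, NC OB and siDNMT1 OB, each was represented by 1 library, and all came from the same cell line. The labels do not say which DNMT1 siRNA was used. DNMT1 depletion and the cell type could not be checked here, since methylation levels do not measure expression. With 1 library in each condition there is no replicate error, so every value below is a level or a difference between 2 libraries, without a test. Levels are fractions from 0 (no CpG methylated) to 1 (all methylated), and the read depth behind them is unknown. Differences of at least 0.1 in level were counted. Gata2 and Gata3 were among the genes that the study itself picked out from these libraries, Gata2 for uninduced cells and Gata3 for OB cells, so their direction in those comparisons is not independent evidence. Regions outside repeats with a level numbered 109280 in NC uninduced, 109582 in siDNMT1 uninduced, 109195 in NC OB and 108116 in siDNMT1 OB. The siDNMT1 OB library had the fewest in every class of region.

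Sequence at the starts of these genes is shown because the levels below turn on where their CpG sites lie. The bases upstream of the RefSeq start were read for 3 genes (RefSeq, GRCm38.p6, the same assembly as mm10), each 5′ to 3′ on the strand of the gene, with CpG dinucleotides in capitals. For Gata2 (plus strand) they lay at chr6:88193641-88193890 and held 22 CpG sites. For Gata3 (minus strand) they lay at chr2:9878601-9878850 with 19 CpG sites, and for Gata5 (minus strand) at chr2:180334700-180334929 with 21. The fourth sequence is the part of a Gata3 island, chr2:9877288-9877484 on the minus strand with 16 CpG sites, that runs from the coding exon into the next intron, and it is shown because this island carried the largest difference among the members. Bases of the island that any transcript has as UTR, with the start codon among them, are not shown.
Gata2 upstream: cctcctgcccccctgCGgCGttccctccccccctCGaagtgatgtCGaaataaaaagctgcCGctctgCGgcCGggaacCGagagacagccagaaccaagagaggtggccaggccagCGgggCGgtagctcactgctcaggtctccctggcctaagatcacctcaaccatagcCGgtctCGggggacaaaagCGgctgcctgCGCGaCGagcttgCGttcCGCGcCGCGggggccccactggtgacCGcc
Gata3 upstream: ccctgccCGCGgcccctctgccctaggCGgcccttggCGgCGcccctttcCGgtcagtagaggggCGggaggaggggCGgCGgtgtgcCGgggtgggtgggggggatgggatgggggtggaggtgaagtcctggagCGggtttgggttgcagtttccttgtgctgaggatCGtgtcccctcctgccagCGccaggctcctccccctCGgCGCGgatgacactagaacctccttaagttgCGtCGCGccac
Gata5 upstream: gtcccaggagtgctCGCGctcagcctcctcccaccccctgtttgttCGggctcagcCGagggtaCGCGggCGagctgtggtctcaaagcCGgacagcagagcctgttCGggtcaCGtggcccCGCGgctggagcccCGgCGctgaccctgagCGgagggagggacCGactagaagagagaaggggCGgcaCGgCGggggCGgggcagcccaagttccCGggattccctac
Gata3 coding-start island: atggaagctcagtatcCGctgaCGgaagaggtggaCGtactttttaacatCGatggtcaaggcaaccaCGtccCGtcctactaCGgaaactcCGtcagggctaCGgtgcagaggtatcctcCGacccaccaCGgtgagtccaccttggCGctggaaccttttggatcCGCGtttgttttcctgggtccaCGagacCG

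In the 300-base RefSeq windows from which the upstream sequences were taken, 250 bases before to 50 after the start, CpG was counted as the letters CG, which read the same on both strands. The Gata2 window held 32 CpG sites, and 9.52% of 32851 mouse promoter windows held as many or more. A window at the second Gata2 start held 29 (12.9% of windows), that of Gata5 held 26 (16.9%) and that of Gata3 held 22 (23.1%). All 4 windows were thus on the CpG-rich side of mouse promoters. Gata4 and Gata6 had no entry in the table used.

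The 5 genes differed widely from each other in level, and this order was similar in most classes of entry. Gata4 was the most methylated and Gata5 the least in promoters, exons and introns. In the 5′ UTR, Gata4 was again highest and Gata6 was lowest. For each class, the order below was set by the median of the 4 libraries, and 2 neighbours were counted as overlapping where their ranges over the 4 libraries shared values.

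Promoter levels were intermediate in 3 of the 4 genes with a promoter entry. The Gata4 promoter stood at 0.474 in NC uninduced, 0.502 in siDNMT1 uninduced, 0.476 in NC OB and 0.454 in siDNMT1 OB. The Gata2 promoter stood at 0.456, 0.437, 0.423 and 0.414 in the same order of libraries. The Gata3 promoter stood at 0.437 and 0.436 in the uninduced libraries. With the OB values added, the ranges of Gata4 and Gata2 overlapped, as did those of Gata2 and Gata3, so these 3 were not separated. The Gata5 promoter was lower than all of them, at 0.121 in NC uninduced, 0.177 in siDNMT1 uninduced, 0.0619 in NC OB and 0.132 in siDNMT1 OB. Its mean level lay at the 44.5th percentile of all promoters, against the 68.7th to 73.1st for the other three. The promoter of Gata6 was not analysed here.

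In the 5′ UTR the genes fell over nearly the whole scale. The Gata4 5′ UTR was at 0.780, 0.775, 0.752 and 0.747 in NC uninduced, siDNMT1 uninduced, NC OB and siDNMT1 OB, and its mean level was at the 97.5th percentile of all 5′ UTRs. The Gata3 5′ UTR came next, at 0.565 and 0.586 in the uninduced libraries and with a wide range discussed with the comparisons below. Its mean level was at the 91.5th percentile. Gata5 (0.167 to 0.183) and Gata2 (0.133 to 0.1999) overlapped each other. Gata6 was lowest, at 0.0885, 0.0783, 0.0508 and 0.0716, with no overlap with Gata2. In each of the 4 libraries the median 5′ UTR of the mouse genes stood between 0.0258 and 0.0296, so all 5 members lay above it.

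Exons and introns followed the same order at the ends and differed in the middle. Exon levels were 0.740 to 0.808 in Gata4 and 0.732 to 0.773 in Gata3, which overlapped. Gata6 exons followed at 0.667 to 0.695, Gata2 exons at 0.404 to 0.444 and Gata5 exons at 0.230 to 0.270, and none of these overlapped a neighbour. Intron levels were 0.558 to 0.609 in Gata4, 0.495 to 0.547 in Gata3, 0.426 to 0.462 in Gata2, 0.379 to 0.434 in Gata6 and 0.192 to 0.208 in Gata5. Gata2 and Gata6 introns overlapped, and the other neighbours did not. The only 3′ UTR entry was that of Gata3, at 0.794, 0.814, 0.798 and 0.761. The 3′ UTRs of the other 4 genes were not analysed here.

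**Figure D1:**
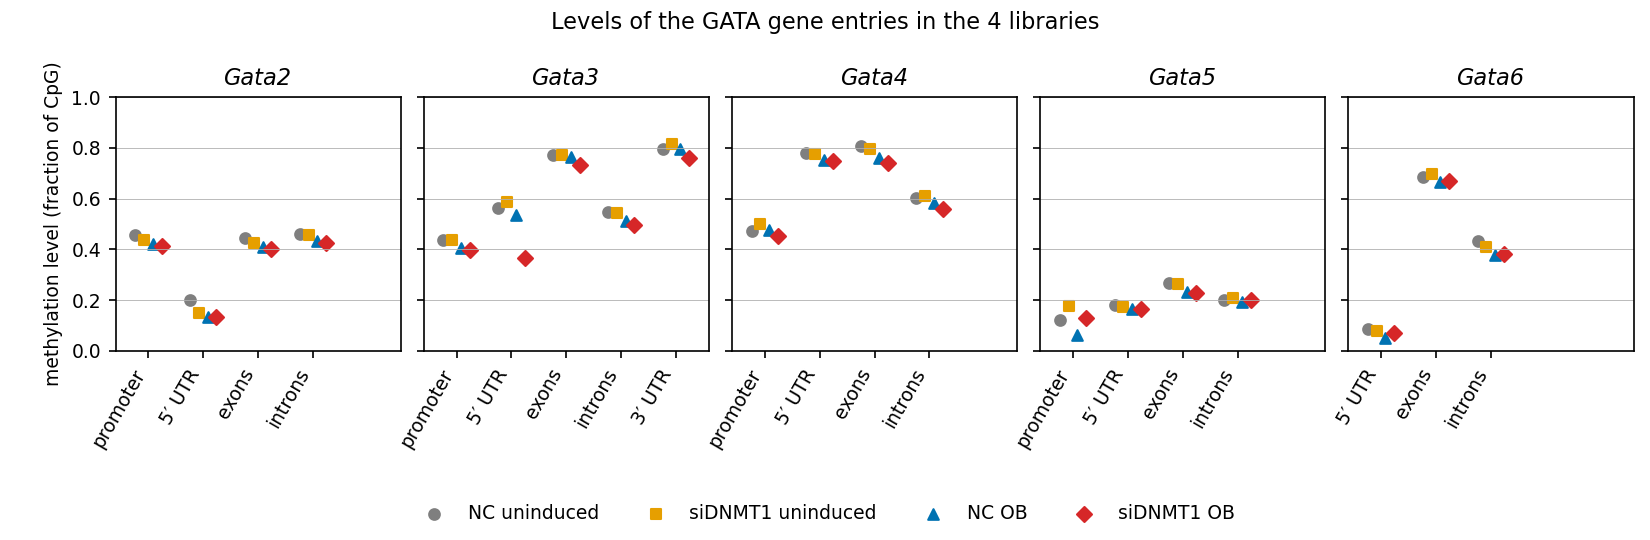
Methylation level (y axis, fraction from 0 to 1) of the 20 gene entries of the 5 GATA genes, by class of entry (x axis), with 1 marker for each of the 4 libraries. Gata4 markers sit highest and Gata5 markers lowest in promoters, exons and introns, and the Gata3 5′ UTR in siDNMT1 OB (0.367) stands below its other 3 libraries (0.537 to 0.586).

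Taken over every class of entry shared by a pair of members, Gata3 and Gata4 were the most alike, with a mean absolute difference in level of 0.0973 over 16 values. Gata4 and Gata5 were the least alike, at 0.465 over 16 values. The same measure was used to find the genes nearest to each member among all genes with the same classes of entry. For Gata2 these were Gfi1 (0.0268) and Otx2 (0.0342), among 6998 genes and over 16 values. For Gata3, with 2808 genes and 20 values, they were Grik5 (0.0298) and Tnk1 (0.0534). Kifc3 (0.0246) and Xk (0.0293) were nearest to Gata4, and Sybu (0.0261) and Ihh (0.0277) to Gata5. Zyg11b (0.0338) and Plcg2 (0.0355) were nearest to Gata6, over 12 values and 581 genes. Every member had genes outside the family whose levels were closer to it than those of any other member. This was to be expected, since the nearest were picked from 581 to 6998 genes and the family offers only a few. It is not a result about the family. The points share libraries and differ in CpG content, and the measure is a description only.

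Islands at or near a start were less methylated than islands further inside the gene in Gata3, Gata4 and Gata6. Positions are on GRCm38 (mm10), and the main transcription start is that of the main coding transcript in GENCODE vM21. Gata3 (ENSMUSG00000015619, chr2:9857078-9890034, minus strand) had 5 islands and 10 shores. The Gata3 island across the main start, chr2:9878568-9878867, which covers 33 bases of the 5′ UTR of the main coding transcript and bases upstream of it, was at 0.0624, 0.0897, 0.0490 and 0.0582 in NC uninduced, siDNMT1 uninduced, NC OB and siDNMT1 OB. The shore across the same start, chr2:9877686-9879686, was at 0.103, 0.0949, 0.0616 and 0.0655. Upstream of the start, 2 overlapping shores held the lowest levels in the gene. The shore chr2:9879092-9881091 was at 0.0237, 0.0214, 0.0463 and 0.0455, and the shore chr2:9878868-9880868 was at 0.0261, 0.0226, 0.0388 and 0.0382. The region around the main Gata3 start was thus nearly unmethylated in all 4 libraries. Levels were far higher on both sides of it: the shore at chr2:9880253-9882252, further upstream, was at 0.702 to 0.781, and the highest Gata3 island, chr2:9874642-9874956 in coding sequence and the adjoining intron, was at 0.816 to 0.839. The shore on its far side, chr2:9872641-9874640, held the highest single level of the gene, 0.849 in siDNMT1 uninduced, and was at 0.793, 0.778 and 0.790 in NC uninduced, NC OB and siDNMT1 OB.

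The Gata3 promoter entry did not match the low levels around the main start. A window of 2 kb before the main start, chr2:9878601-9880600, is the promoter length given by the study, and the Gata3 promoter entry stood at 0.398 to 0.437. Of the 5 islands and shores that overlap this window, the 4 with most of their bases inside it stood at 0.0214 to 0.103, and the fifth, with 348 of its 2000 bases inside it, stood at 0.702 to 0.781. Other Gata3 transcripts in GENCODE start further upstream, the outermost at chr2:9890034, and no island or shore overlaps the 2 kb before it. Which start was used for the Gata3 promoter entry is not given in the sources used here. The Gata4 promoter has the same ambiguity, since the main start lies at chr14:63245271 and the outermost at chr14:63271692.

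Gata4 (ENSMUSG00000021944, chr14:63198922-63271692, minus strand) had 5 islands and 8 shores. Its island across the main start, chr14:63245178-63245911, was at 0.196, 0.208, 0.181 and 0.152 in NC uninduced, siDNMT1 uninduced, NC OB and siDNMT1 OB, and was the lowest of the gene. The shore across the same start, chr14:63244365-63246364, was at 0.259, 0.271, 0.255 and 0.232. The highest island, chr14:63240596-63241125, lies wholly in coding sequence and was at 0.834, 0.810, 0.767 and 0.736. The Gata4 start was therefore the low point between islands at 0.539 or more on either side of it.

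Gata2 (ENSMUSG00000015053, chr6:88193891-88207032, plus strand) has a distal start, where the main transcript begins, and a second start at chr6:88198334. The order was the reverse of that in Gata3 and Gata4. The island across the distal start, chr6:88193562-88194598, was the higher of the 2 Gata2 islands, at 0.610, 0.570, 0.558 and 0.524. The long island that contains the second start and coding sequence, chr6:88196377-88199830 with 227 CpG sites, was at 0.280, 0.257, 0.262 and 0.266. The shore between them, chr6:88194376-88196375, held the highest level of the gene, 0.787 in siDNMT1 uninduced.

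Gata5 (ENSMUSG00000015627, chr2:180325133-180334699, minus strand) had 1 island and no shore. This island, chr2:180333678-180335011, spans the start, UTR and coding bases and was at 0.270, 0.269, 0.234 and 0.229. Gata5 thus had similar levels in its introns, 5′ UTR and island, which were low for its class only in the introns (25.9th percentile). Its mean 5′ UTR level was at the 74.2nd percentile of all 5′ UTRs. The median over all islands stood between 0.0277 and 0.0330 in the 4 libraries, below the Gata5 island.

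Gata6 (ENSMUSG00000005836, chromosome 18, plus strand) had 3 islands and 4 shores. The island nearest the main start, 11052639 to 11052989, contains UTR bases and was at 0.0383, 0.0541, 0.0312 and 0.0323 in NC uninduced, siDNMT1 uninduced, NC OB and siDNMT1 OB. The shore across the start, 11052059 to 11054058, was at 0.264, 0.245, 0.201 and 0.221. The next island, 11054060 to 11055229, covers coding sequence with 143 CpG sites and was at 0.765, 0.770, 0.736 and 0.730. The highest island, 11059070 to 11059297, was at 0.897, 0.892, 0.888 and 0.875. Within less than 3 kb, the Gata6 gene went from an almost unmethylated island to one with most CpG sites methylated, in all 4 libraries.

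**Figure D2:**
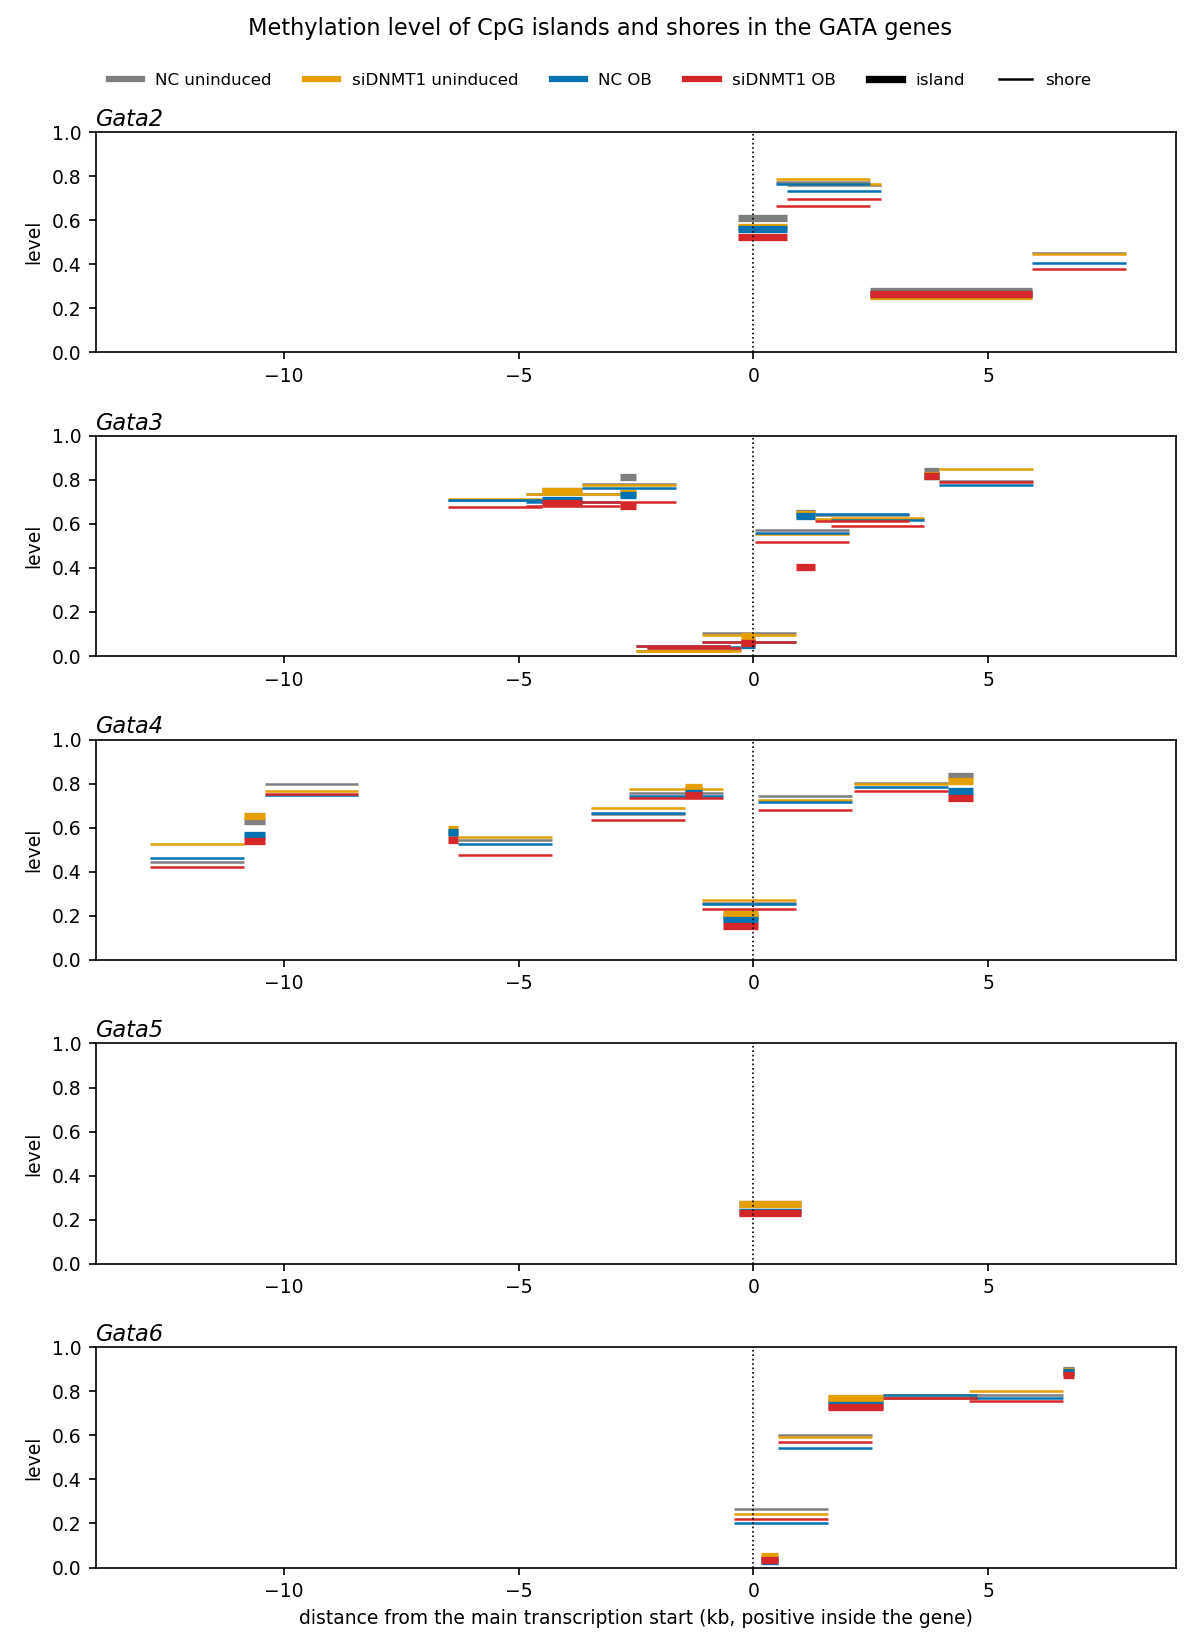
Methylation level (y axis, fraction) of the 41 islands (thick bars) and shores (thin bars) in each gene against distance from the main transcription start (x axis, kb, positive inside the gene), with 1 colour for each library and the length of a bar showing the length of the region. Levels dip at the start in Gata3 (island at 0.0490 to 0.0897) and Gata4 (0.152 to 0.208), and in Gata6 just inside it (0.0312 to 0.0541), while the dip of Gata2 lies over its second start.

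Differences between siDNMT1 uninduced and NC uninduced were small across the family, as they were over all gene entries. None of the 20 gene entries differed by 0.1 or more between siDNMT1 uninduced and NC uninduced, where 0.852% of all gene entries were lower and 0.692% were higher by at least that much. Of the 20, 12 were lower and 8 higher in siDNMT1, with a median difference of -0.00402 against -0.00158 over all gene entries, of which 55.9% were lower. This direction was not stable: 9 were lower and 11 higher once each library was centred on the median of its class of entry, where 45.3% of all gene entries were lower. None of the 41 islands and shores differed by 0.1 or more, against 0.59% lower and 0.662% higher over all islands and shores, and they were split into 21 lower and 20 higher, with a median of -0.00165 against -0.000313 over all, of which 51.5% were lower.

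The gene entries furthest from 0 in uninduced cells were those of Gata5 and Gata2, and the regions furthest from 0 lay outside the exons of Gata4 and Gata3. The Gata5 promoter was higher in siDNMT1, by 0.0561 (0.121 against 0.177). The Gata2 5′ UTR was lower, by a difference of -0.0499 (0.1999 against 0.150), and all 4 Gata2 entries were lower with differences from -0.0499 to -0.00409, of which the intron turned higher after centring. Among islands and shores, the Gata4 shore chr14:63256126-63258126 was 0.0808 higher (0.443 against 0.524). The Gata3 island chr2:9881093-9881434, upstream of the main start, differed by -0.0741 (0.813 against 0.738). None of these 4 reached the threshold.

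In OB cells, 1 region of Gata3 stood apart. Of the 20 gene entries, 1 was lower by at least 0.1 in siDNMT1 OB than in NC OB, and none was higher, where 1.44% of all gene entries were lower and 0.725% were higher. That entry was the Gata3 5′ UTR, which differed by -0.170. Its difference in uninduced cells was 0.0213 in the other direction, and the OB difference minus the uninduced one was -0.191. Of all 5′ UTRs with a mean level from 0.2 to 0.8, 4.17% were lower by at least 0.1 in this comparison. Of the 20 entries, 13 were lower and 7 higher, with a median of -0.00652 against -0.00619 over all gene entries, of which 66.8% were lower, so the split was near that of all genes. After centring on the class medians 9 were lower and 11 higher, beside 43.5% lower over all.

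The CpG island at the Gata3 coding start, part of which is printed above, was lower in the same library. The island, chr2:9877288-9877685, has 398 bases and 39 CpG sites, of which 238 bases are coding, 96 are 5′ UTR and 64 are intron of the main transcript, and the start codon lies 1011 bases inside the main start. It stood at 0.650 in NC uninduced, 0.644 in siDNMT1 uninduced, 0.634 in NC OB and 0.406 in siDNMT1 OB. The first 3 libraries lay close together and siDNMT1 OB was well below them. Against its NC library, siDNMT1 differed by -0.00648 without induction and by -0.228 with it. It was the only 1 of the 41 islands and shores with a siDNMT1 difference of 0.1 or more in OB cells, where 1.14% of all islands and shores were lower and 0.573% higher by that much. The 5′ UTR of the main transcript has 591 bases and 29 CpG sites, of which 13 lie in this island, so the 5′ UTR entry and the island share CpG sites and are not separate measurements.

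Differences around the island were smaller, also in a shore that contains it. The island across the main start was 0.00918 higher in siDNMT1 OB than in NC OB, and the shore across the start was 0.00388 higher. On the 3′ side, the shore chr2:9875287-9877286, which ends beside the island, differed by -0.0329 (0.646 against 0.613). The shore chr2:9876567-9878566 contains the whole island, whose 39 CpG sites are among its 93. It differed by only -0.0413 (0.560 against 0.519), against -0.228 for the island alone. How the sites within a region were covered and weighted is unknown, so the 2 values cannot be reconciled here. The Gata3 promoter entry differed by -0.00806, the exons by -0.0312, the introns by -0.0148 and the 3′ UTR by -0.0370, and after centring the promoter and intron differences were above 0. Gata3 was therefore lower in all 5 of its entries in siDNMT1 OB, or in 3 of 5 after centring, and only the 5′ UTR was past the threshold.

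Other annotated genes lie over the same Gata3 bases, and their entries hold the same CpG sites. Gm13256 (ENSMUSG00000086618, chr2:9877256-9878869, plus strand) runs antisense to the Gata3 5′ end. It was looked up after the values of Gata3 were seen. Its intron entry stood at 0.425, 0.405, 0.354 and 0.258 in NC uninduced, siDNMT1 uninduced, NC OB and siDNMT1 OB, a difference of -0.0957 between the OB libraries. Its exon entry had the same 4 levels as the island across the Gata3 start, and its promoter entry the same 4 levels as the shore chr2:9875287-9877286. A difference at these bases can thus be listed under Gata3 or under Gm13256, and the files do not tell the genes apart.

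**Figure D3:**
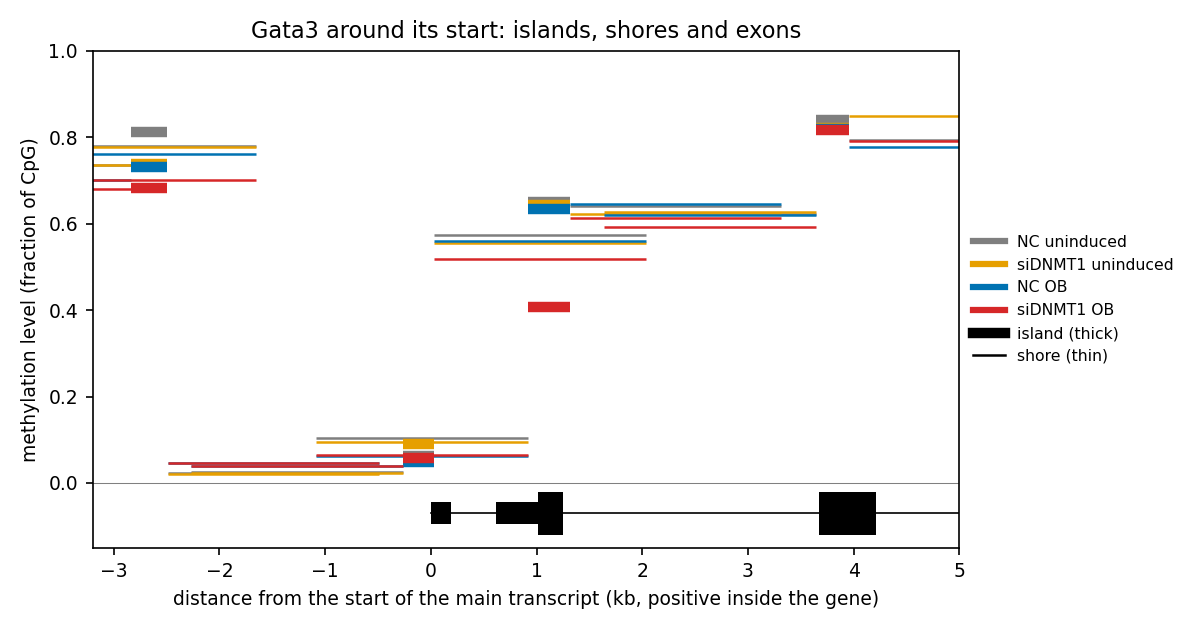
Methylation level (y axis, fraction) of Gata3 islands (thick bars) and shores (thin bars) against distance from the main start (x axis, kb, positive inside the gene) in the 4 libraries, with the exons of the main transcript drawn in black below 0 (tall for coding, low for UTR). At the island over the coding start, siDNMT1 OB is at 0.406 and the other 3 libraries are at 0.634 to 0.650, while the island over the transcription start is below 0.1 in all 4.

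Outside Gata3, the DNMT1 siRNA differences in OB cells stayed below 0.1. The Gata2 shore chr6:88194376-88196375 came closest, at -0.0993. It was at 0.774 in NC uninduced, 0.787 in siDNMT1 uninduced, 0.763 in NC OB and 0.664 in siDNMT1 OB, so siDNMT1 OB was again the lowest of the 4. A second Gata2 shore that overlaps most of it, chr6:88194599-88196599, differed less, by -0.0371 (0.733 in NC OB against 0.695 in siDNMT1 OB). Over all islands and shores of the family, 33 of 41 were lower in siDNMT1 OB with a median of -0.0204, against -0.00317 over all islands and shores, of which 62.9% were lower (72.9% of those with a mean level from 0.2 to 0.8). After centring 30 of 41 were lower, beside 47.9% over all. Some of the 41 overlap, so these are not 41 separate measurements. In Gata4, 12 of 13 were lower (11 after centring), and all 4 Gata4 gene entries were lower before and after centring, by -0.00495 to -0.0263 before it. Gata6 was mixed. All 3 of its gene entries were higher in siDNMT1 OB, by 0.00271 to 0.0208, and still higher after centring. Of its 7 islands and shores, 4 were lower and 3 higher, both before and after centring. Gata5 was higher in 3 of 4 entries (also 3 of 4 after centring), and its promoter by 0.0698, the largest positive difference of the family. The Gata5 island differed by -0.00498.

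OB induction went with lower levels in nearly every GATA entry. In NC cells, 18 of 20 gene entries were lower in OB than in uninduced cells (17 after centring). Their median was -0.0302 against -0.00339 over all gene entries, of which 61.7% were lower (36.8% after centring). Of all gene entries with a mean level from 0.2 to 0.8, 59.3% were lower. None of the 20 was lower by at least 0.1 and none higher, where 1.33% of all gene entries were lower and 0.815% higher. The lowest differences were those of the Gata2 5′ UTR (-0.0668), the Gata5 promoter (-0.0588) and the Gata6 introns (-0.0550). The 2 entries that were higher were the Gata3 3′ UTR, by 0.00354, and the Gata4 promoter, by 0.00181. Of the 41 islands and shores, 33 were lower (25 after centring), beside 67.7% over all (38.1% after centring). Of all islands and shores with a mean level from 0.2 to 0.8, 68.6% were lower. The centred share in that range is not given here, so the centred counts do not compare regions of like level. None of the 41 was past 0.1 in either direction, against 1.48% lower and 0.609% higher over all. The Gata3 island chr2:9881093-9881434 had the lowest difference, -0.0811.

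In siDNMT1 cells, all 20 gene entries were lower in OB than in uninduced cells, or 17 of 20 after centring, when the Gata2 promoter and exons and the Gata5 introns turned higher. Over all gene entries 72% were lower, or 37.3% after centring, so a lower level in OB was common to most genes before centring. Of all gene entries with a mean level from 0.2 to 0.8, 72.2% were lower before centring. The GATA median was -0.0341 against -0.00800 over all gene entries. The Gata3 5′ UTR was again the one entry lower by at least 0.1, at -0.219, with none higher, where 2.42% of all gene entries were lower and 0.98% higher. This comparison and that of siDNMT1 with NC in OB cells share the siDNMT1 OB library, so the low Gata3 5′ UTR counts in both.

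Among islands and shores, 38 of 41 were lower in siDNMT1 OB than in siDNMT1 uninduced (31 after centring), beside 77.0% over all (37.8% after centring). Their median was -0.0401 against -0.00825 over all. Of all islands and shores with a mean level from 0.2 to 0.8, 78.4% were lower, and the centred share in that range is not given here. There were 4 of the 41 lower by at least 0.1 and none higher, where 2.39% of all islands and shores were lower and 0.603% higher. After centring 2 of the 4 were left, and the share over all past 0.1 after centring is not given here. The 4 came from 3 genes. The Gata3 coding-start island differed by -0.238 and the Gata2 shore chr6:88194376-88196375 by -0.124. The Gata2 shore that overlaps most of the latter, chr6:88194599-88196599, differed by -0.0685 and was not past the threshold. In Gata4, a CpG-dense island upstream of the main start, chr14:63255683-63256125 with 66 CpG sites in 443 bases, differed by -0.113. It stood at 0.629, 0.652, 0.566 and 0.539 in NC uninduced, siDNMT1 uninduced, NC OB and siDNMT1 OB, so both OB libraries were below both uninduced ones. The adjoining Gata4 shore, chr14:63256126-63258126, differed by -0.103 and stood at 0.443, 0.524, 0.463 and 0.421, where the uninduced siDNMT1 library was the high one.

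**Figure D4:**
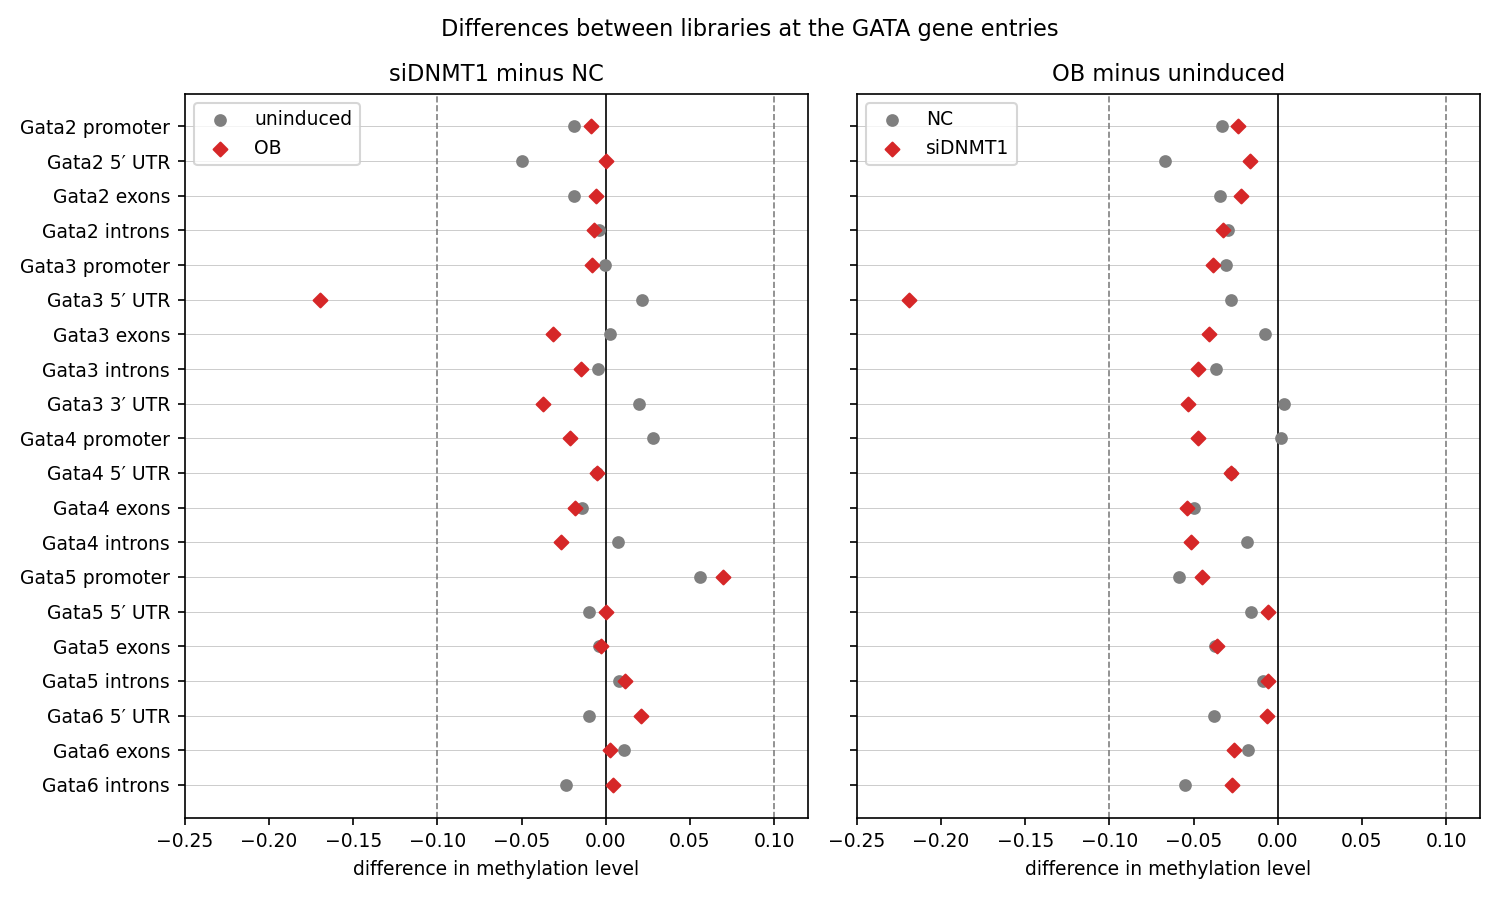
Difference in methylation level (x axis) for each of the 20 gene entries (y axis), siDNMT1 minus NC in the left panel and OB minus uninduced in the right panel, with dashed lines at -0.1 and 0.1 and overlapping markers where values are close. The Gata3 5′ UTR is the only entry past a line (-0.170 left, -0.219 right), and in the right panel 18 of 20 NC markers and 20 of 20 siDNMT1 markers lie below 0 (17 of 20 in each after centring on class medians).

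Regions near 0 or 1 can move less than those in between, and the GATA entries were mostly in between: 16 of 20 gene entries and 32 of 41 islands and shores had a mean level from 0.2 to 0.8. Over all gene entries in that range the median differences were -0.00612 for siDNMT1 in uninduced cells, -0.0175 for siDNMT1 in OB cells, -0.00642 for OB in NC cells and -0.0181 for OB in siDNMT1 cells. The 16 GATA entries in that range had medians of -0.00220, -0.00851, -0.0287 and -0.0371 in the same order. They were thus less negative than all entries for both siDNMT1 comparisons and more negative for both OB comparisons. For siDNMT1 in OB cells the 32 islands and shores went the other way, with a median of -0.0271 against -0.0153 over all islands and shores in that range. Whether the family differs from genes of like level beyond the spread between libraries was not tested.

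Genes that work with GATA factors were read as 3 lists. Among 10 GATA relatives and cofactors, such as the cofactor Zfpm1 (FOG1), 40 entries were present. Of these, 1 was higher by at least 0.1 in siDNMT1 in both states, beside 0.692% (uninduced) and 0.725% (OB) of all gene entries, and none was lower. That entry was the 5′ UTR of Gata1, the erythroid GATA factor, at 0.667, 0.774, 0.613 and 0.818 in NC uninduced, siDNMT1 uninduced, NC OB and siDNMT1 OB, which makes differences of 0.108 and 0.205. It was opposite in sign to the Gata3 5′ UTR in OB cells. For OB against uninduced cells, none of the 40 was past the threshold in either direction, in NC or in siDNMT1 cells. Over all gene entries 1.33% and 2.42% were lower and 0.815% and 0.98% higher. The median OB differences of this list were -0.00544 and -0.00507, beside -0.00339 and -0.00800 over all gene entries.

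Among 11 heart and endoderm partners of Gata4, Gata5 and Gata6, with 44 entries, 1 was lower by at least 0.1 in siDNMT1 in uninduced cells and none in OB cells, beside 0.852% and 1.44% of all gene entries. It was the 3′ UTR of Hand1, a transcription factor of the early heart, which was listed at 1 in NC uninduced, 0.778 in siDNMT1 uninduced, 0.725 in NC OB and 0.732 in siDNMT1 OB. For OB against uninduced cells, 5 of the 44 entries were lower by at least 0.1 in NC and 3 in siDNMT1, beside 1.33% and 2.42% of all gene entries. These were named after their values were seen. The promoter and introns of Tbx20 and the 5′ UTR of Hand2 were in both sets, with differences from -0.142 to -0.107, and the Isl1 5′ UTR (-0.146) and the Hand1 3′ UTR (-0.275) were in the NC set, with -0.0682 and -0.0459 in siDNMT1 cells. The median OB difference of this list was -0.0253 in NC and -0.0306 in siDNMT1 cells, beside -0.0302 and -0.0341 for the 5 GATA genes.

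Among 10 blood and T cell partners of Gata2 and Gata3, 9 had entries, 27 in all. None was past the threshold in uninduced cells, and in OB cells 1 was lower in siDNMT1, beside 1.44% of all gene entries, and none higher. It was the intron entry of Il4, the T helper cytokine gene controlled by Gata3, at 0.824, 0.790, 0.788 and 0.590, a difference of -0.198 between the OB libraries. As in the Gata3 coding-start island, siDNMT1 OB was the low library and the other 3 lay close together. Il13, another T helper cytokine gene on the list, did not move in 1 direction. Between the OB libraries its introns differed by 0.0813, its exons by -0.0597 and its 3′ UTR by -0.0747. Whether the levels of Il4 and Gata3 are related was not tested. For OB against uninduced cells, none of the 27 was past the threshold in NC cells, beside 1.33% lower over all gene entries. In siDNMT1 cells 1 was lower, the Il4 introns again (-0.200), beside 2.42% over all, and none was higher. The median OB differences of this list were -0.0107 in NC and -0.00510 in siDNMT1 cells.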

How the data were processed

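Genomic DNA of C3H10T1/2 cells was sonicated and bisulfite treated, and the 4 libraries are labelled as reduced representation bisulfite sequencing, although the labels name no restriction enzyme. Submitters' processing notes name CASAVA, Trimmomatic 0.36, Bismark 0.16.3 and build mm10. The authors deposited, for each library, 1 methylation level per region as a fraction from 0 to 1, without read counts. The minimum coverage, the weighting of sites within a region and the gene starts used for promoters are not given in the sources used here. Levels were read as deposited, and regions with a level in all 4 libraries were compared by subtraction, with differences of at least 0.1 counted. Gene positions and transcripts were taken from GENCODE vM21, and sequences from RefSeq (GRCm38.p6). No test was run: each condition has 1 library, and a fit of siRNA and induction as additive terms would take their interaction as error. Alternatives were thresholds of 0.05 and 0.2, centring each library on its class medians, a mean level from 0.2 to 0.8, a level in only the 2 libraries compared, and leaving out each gene.

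All entries of the 5 members are named. Of islands and shores, those that differed by at least 0.1, those across a start, and the highest and lowest of each gene by single level are named. Partner entries are named where they differed by at least 0.1 in a comparison, and the Il13 entries were added beside Il4 after their values were seen. The members and lists were chosen with earlier results of these data known. Scripts used Python 3.11.15 with pandas 2.3.3, numpy 2.4.6 and matplotlib 3.10.9, and the counting was tested on simulated data.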

Additional observations from a re-analysis of the deposited data

Results flagged for a closer look

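The siDNMT1 difference of the Gata3 5′ UTR had opposite signs in the 2 states, 0.0213 in uninduced and -0.170 in OB cells. The OB difference of the Gata4 shore chr14:63256126-63258126 was 0.0202 in NC and -0.103 in siDNMT1 cells. Each sign rests on 1 library per condition, and neither difference between the states or siRNAs was tested.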

How the results depend on the processing

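With 1 library per condition, no replicate could be left out. No paired analysis was possible because the labels give no replicate numbers to pair by, and the differences within each siRNA and each state are given as values. With a threshold of 0.05, siDNMT1 gave 1 higher gene entry in uninduced cells and 1 in OB cells, beside 2.65% and 2.48% of all gene entries, and 1 lower and 2 higher islands and shores in uninduced cells and 3 lower in OB cells, beside 2.82%, 2.50% and 5.77% of all. At 0.05, OB induction gave 3 lower gene entries in NC and 4 in siDNMT1 cells, beside 6.90% and 11.6% of all, and 7 and 16 lower islands and shores, beside 8.11% and 12.2%. With a threshold of 0.2, 0 gene entries were lower in siDNMT1 OB than in NC OB, beside 0.265% of all gene entries. At 0.2, 1 island was lower in OB than in uninduced siDNMT1 cells, beside 0.354% of all islands and shores. Centring on class medians turned the gene-entry medians for siDNMT1 to 0.00245 (uninduced) and 0.00129 (OB) and moved that for OB in siDNMT1 cells to -0.0149. It left 2 islands and shores past 0.1 for OB in siDNMT1 cells, and moved the island and shore medians to -0.0120 (siDNMT1 in OB), -0.00583 (OB in NC) and -0.0247 (OB in siDNMT1). The gene-entry median for siDNMT1 in uninduced cells was 0.000911 without Gata2 and -0.00220 for mean levels from 0.2 to 0.8, and that in OB cells was -0.00276 without Gata3. The island and shore median for siDNMT1 in uninduced cells was -0.000689 without Gata2, 0.00785 without Gata3, -0.00268 without Gata4, -0.00102 without Gata5 and -0.000689 for mean levels from 0.2 to 0.8. Requiring a level in only the 2 libraries compared left all 24 counts and medians the same. This was fixed in advance, since every region of the members had a level in all 4 libraries. Centring changed the sign of 16 of 96 named differences, the largest of which was 0.0235 in size. The read depth is unknown, so counting error could not be set beside any of these differences.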

Other observations

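Islands and shores that lie within 6 kb upstream of a GATA gene without overlapping it were read as well, and were chosen after the values inside the genes were seen. Upstream of Gata2, the shore chr6:88191561-88193560 was at 0.817 in NC uninduced, 0.773 in siDNMT1 uninduced, 0.693 in NC OB and 0.769 in siDNMT1 OB. Its OB difference was -0.123 in NC cells and -0.00330 in siDNMT1 cells, so NC OB was the low library there, while siDNMT1 OB was the low one in the first shore inside the gene. The upstream Gata2 island chr6:88189580-88190968 was at 0.451, 0.448, 0.398 and 0.414. Upstream of Gata6, an island was at 0.873, 0.874, 0.868 and 0.865, close to the highest island inside that gene.

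Of the other genes whose annotation overlaps Gata3, 4930412O13Rik (ENSMUSG00000025783) had a 5′ UTR at 0.576, 0.589, 0.522 and 0.473 in the same order of libraries. Antisense to Gata5, the exons of Gata5os (ENSMUSG00000056061) were at 0.387, 0.391, 0.340 and 0.361, above the Gata5 exons in each library.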
